A study of Mus musculus with 28 samples.

Results

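The Hes, Hey and Helt genes encode a family of transcriptional repressors, and their RNA levels were followed in mouse embryonic stem cell (ESC) lines in which the inner ear transcription factors Atoh1, Gfi1 and Pou4f3 could be switched on singly and together. The family was taken by name, as Hes1, Hes3, Hes5, Hes6, Hes7, Hey1, Hey2, Heyl and Helt, which are 9 of the 19421 genes in the deposited table. All 9 passed the filter on low values (10 or more normalized counts in 2 or more libraries), although Hes5 and Helt reached 10 only in libraries of Dox-treated cells. A further relative, Hes2, reached at most 4.59 normalized counts and was not tested.

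The study held 28 RNA-seq libraries from 7 lines, named iAtoh1, iGfi1, iPou4f3, iG+A (Gfi1 with Atoh1), iG+P (Gfi1 with Pou4f3), iP+A (Pou4f3 with Atoh1) and iGPA (all 3 factors). Every line came from the parental A2loxCre ESCs and carried a cassette under a doxycycline (Dox) responsive promoter, which ended in the fluorescent reporter Venus. Cells were grown as embryoid bodies (EBs), floating aggregates that differentiate without the factor LIF, and were collected on day 6. Dox groups received 2 µg/ml Dox for 48 h from day 4 and only their Venus+ cells were sorted for RNA, while No Dox groups were untreated, unsorted EBs of the same line and day. Each line had 2 libraries with and 2 without Dox, from different clones of that line. Dox treatment and sorting therefore cannot be told apart in any Dox effect. In bulk RNA, fewer cells of a type and less RNA per cell cannot be told apart either. The cells were ESC derivatives and not inner ear tissue.

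The normalized counts of a library summed to 36.8 M to 40.4 M, and the depth estimated from the smallest steps between low values was 30.3 M to 48.0 M reads. The induced factors followed the labels. Atoh1, which the cassette and the cell's own gene both feed, stood between 12816 and 21242 normalized counts in Dox libraries of the 4 lines with an Atoh1 cassette, and at most 32.5 in Dox libraries of the other lines. Gfi1 stood between 8119 and 12487 where induced. Pou4f3 was at 4694 and 5381 in iPou4f3 Dox libraries, below the 10868 to 19883 of the 3 lines that induced it with another factor. Outside their cassettes Gfi1 was at most 113 and Pou4f3 at most 101 in Dox libraries. Some such factors were still called higher with Dox. On the log2 scale Atoh1 rose by 2.04 in iGfi1 and 2.70 in iG+P, and Pou4f3 by 2.21 in iAtoh1 and 3.11 in iG+A. Gfi1 rose by 1.55 in iPou4f3 and 1.65 in iP+A. Atoh1 in iPou4f3, Gfi1 in iAtoh1 and Pou4f3 in iGfi1 were not called. The 10 listed ESC markers summed to between 10325 and 40755 normalized counts in every library. Of 11 genes that cell dissociation is known to switch on, Fos and Atf3 fell in iG+A, and none was called in the other 6 lines. Without Dox, Atoh1 RNA was already higher in lines with an Atoh1 cassette than in those without, by 3.23 (SE 0.18) on the log2 scale (adjusted p = 3.3e-09, limma).

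HES and HEY proteins are basic helix-loop-helix (bHLH) repressors with an Orange domain, and many of them carry out the orders of Notch. When a ligand of the Delta or Jagged kind on a neighbouring cell binds a Notch receptor, the receptor is cut, its inner part joins the DNA-binding protein RBPJ, and genes such as Hes1, Hes5, Hey1, Hey2 and Heyl are switched on. Their products recruit Groucho (Tle) corepressors and hold down proneural bHLH activators, the class to which Atoh1 belongs. In the inner ear this circuit helps to decide which cells become hair cells and which remain supporting cells. Hes6 differs in that it opposes Hes1 and is itself switched on by proneural factors, Hes7 drives the segmentation clock of the presomitic mesoderm, and Helt directs the fate of GABAergic neurons in the midbrain.

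Across the 7 lines, the family rose far more often than it fell. Of 63 pairs of a member and a line, 23 rose and 1 fell, a call being a log2 fold change of 1.5 or more in size whose adjusted p was under 0.05 (limma, Benjamini-Hochberg over all 16837 genes tested). The risers were Hes5, Hes6, Hes7, Hey1, Heyl and Helt, and the only member to fall past the threshold was Hey2, joined by Hes3 in iAtoh1 when the libraries were quantile normalized. In iAtoh1 cells 5 of 9 members rose (Hes5, Hes6, Hes7, Heyl and Helt), where 2.89% of all genes rose and 2.52% fell. In iG+A cells these 5 and Hey1 rose, beside 7.35% of all genes higher and 4.95% lower. The same 6 names rose in iGPA cells, where the shares of all genes were 8.65% higher and 5.31% lower. In iP+A cells 3 members rose (Hes6, Hey1 and Heyl), against 4.7% of all genes higher and 2.58% lower.

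Of the lines without an Atoh1 cassette, iG+P alone held calls. In iG+P cells 3 members rose (Hes5, Hes7 and Heyl) and Hey2 fell, against 5.16% of all genes higher and 5.36% lower. All 3 rises lost their call without the first iG+P Dox library, with log2 changes of 1.88, 1.46 and 1.08. No member passed the threshold in iGfi1 cells, where 2.15% of all genes rose and 2.67% fell, although Hes6, Hey1 and Hey2 had an adjusted p under 0.05 with smaller changes. No member passed in iPou4f3 cells either, where 1.47% rose and 0.606% fell. The median log2 fold change of the 9 members was 2.05 in iAtoh1, 3.09 in iG+A, 2.74 in iGPA, 1.38 in iG+P, 0.86 in iGfi1, 0.56 in iP+A and −0.30 in iPou4f3, while that of all genes lay between −0.03 and 0.02 in every line.

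**Figure D1:**
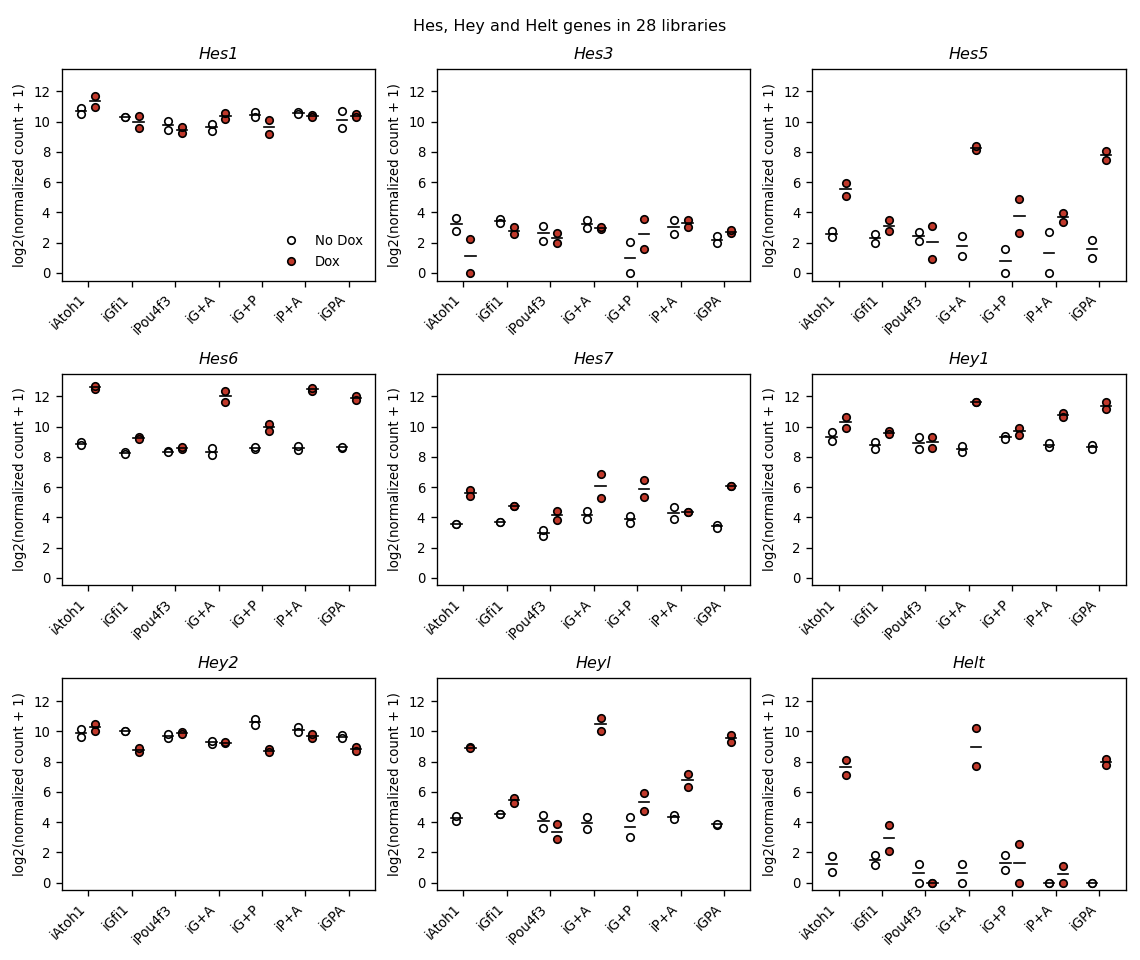
Levels of the 9 genes in each of the 28 libraries, as log2(normalized count + 1), by line; open circles are No Dox and filled circles Dox libraries, and bars are means of 2. Hes6, Heyl, Hes5 and Helt stand apart from their untreated libraries in iAtoh1, iG+A and iGPA, while Helt in iP+A stays at 0 and 1.18 normalized counts, and Hes1 changes little.

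Hes6, the antagonist of Hes1 that proneural factors switch on, lies on chromosome 1 from 93308060 to 93310615 (minus strand, NCBIM37). Without Dox it stood between 279 and 499 normalized counts in the 14 libraries. With Dox it reached 5809 and 6639 in iAtoh1, 5306 and 5910 in iP+A, 3197 and 5255 in iG+A, and 4094 and 3440 in iGPA. Every Dox library of these 4 lines lay above all untreated libraries and above all Dox libraries of the other 3 lines. The rise was 13.3-fold in iAtoh1 (log2 3.74, SE 0.20, adjusted p = 8.0e-10), 14.6-fold in iP+A, 12.6-fold in iG+A and 9.54-fold in iGPA. In iG+P cells Hes6 went from 369 and 393 to 1167 and 839.6, and in iGfi1 cells from 318 and 292 to 623 and 572. These changes, 1.38 and 0.97 on the log2 scale, had adjusted p-values of 2.8e-05 and 0.0016 and were under the fold that counts as a call. Without the second iG+P Dox library the iG+P change was 1.61, over that fold.

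No difference in the Hes6 response to Atoh1 was called when another factor was added. The Dox effect differed by −0.08 (95% interval −0.67 to 0.51) between iG+A and iAtoh1 and by 0.13 (−0.46 to 0.72) between iP+A and iAtoh1. Between iGPA and iP+A the difference was −0.62 (−1.20 to −0.03, adjusted p = 0.14), an interval without 0, and between iGPA and iG+A −0.40 (−0.99 to 0.19). Adding Atoh1 did move the Dox effect on Hes6, by 2.69 over iGfi1, 3.62 over iPou4f3 and 1.88 over iG+P, with adjusted p-values of 5.4e-06, 5.4e-07 and 0.00021.

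Helt, the GABAergic midbrain determinant, lies on chromosome 8 from 47377404 to 47380025 (minus strand, NCBIM37) and was close to absent before induction. The highest of the 14 untreated libraries was at 2.52 normalized counts and 6 were listed at 0. In iAtoh1 cells it went from 2.39 and 0.638 to 279.6 and 135 normalized counts. In iG+A cells it went from 0 and 1.38 to 204 and 1201, and the iGPA libraries, both listed at 0 untreated, reached 289 and 215. The groups did not overlap in any of these 3 lines, but the iG+A replicates were far apart. The log2 change was 6.37 (SE 0.88, adjusted p = 4.8e-05) in iAtoh1 and 8.33 (SE 0.88, adjusted p = 7.5e-07) in iG+A, where it was 9.61 without the first and 7.06 without the second Dox replicate, called in both. For iGPA, with both untreated libraries at 0, no fold is given and the adjusted p was 7.9e-07.

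In iP+A cells, which induced Atoh1 as well, both untreated libraries had Helt listed at 0, and the Dox libraries were at 0 and 1.18. Its Dox effect was lower than in iAtoh1 by 5.81 on the log2(value + 1) scale (SE 1.24, 95% interval −8.41 to −3.21, adjusted p = 0.0078). Atoh1 itself was at 14888 and 12816 normalized counts in iP+A Dox libraries and at 18996 and 21242 in those of iAtoh1, and whether this gap had a part in the Helt difference was not tested. With Gfi1 beside Pou4f3 and Atoh1, in iGPA, Helt was high again, and the Dox effect of iGPA differed from that of iP+A with an adjusted p of 0.00047. Without an Atoh1 cassette, Helt was at 13.0 and 3.22 normalized counts in iGfi1 Dox libraries. It was at 4.84 and 0 in iG+P and at 0 in both of iPou4f3. No Helt change was called in these lines, although the iGfi1 change was called against all 14 untreated libraries together (2.19, adjusted p = 0.017). Atoh1 RNA was itself called higher with Dox in iGfi1 and iG+P.

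Promoter sequences from RefSeq (GRCm38.p6, a later build than the mm9 of the expression files) were at hand for 5 of the 9 members: Hes5, Hes6, Hes7, Hey2 and Helt. The 250 bases before the start are printed for Helt (chr8:46294672-46294921, minus strand), Hes5 (chr4:154960673-154960922, plus strand) and the downstream start of Hes6 (chr1:91413223-91413472, minus strand), the 3 of these genes with the largest rises in iG+A cells. All run 5′ to 3′ on the strand of the gene. Capitals mark E-boxes, which bHLH proteins such as Atoh1 bind, in their general form CANNTG, and the core TGGGAA that RBPJ binds, searched on both strands.
Helt: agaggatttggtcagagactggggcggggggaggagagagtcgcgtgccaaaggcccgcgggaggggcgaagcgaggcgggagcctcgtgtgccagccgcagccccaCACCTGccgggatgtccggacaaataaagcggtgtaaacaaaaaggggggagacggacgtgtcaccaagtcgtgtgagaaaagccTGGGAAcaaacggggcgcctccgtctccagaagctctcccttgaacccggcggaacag
Hes5: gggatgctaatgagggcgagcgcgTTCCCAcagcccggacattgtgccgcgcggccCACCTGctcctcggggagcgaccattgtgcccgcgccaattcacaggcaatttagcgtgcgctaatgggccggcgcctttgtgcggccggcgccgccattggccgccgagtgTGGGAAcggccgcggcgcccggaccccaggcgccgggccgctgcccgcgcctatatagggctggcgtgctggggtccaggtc
Hes6: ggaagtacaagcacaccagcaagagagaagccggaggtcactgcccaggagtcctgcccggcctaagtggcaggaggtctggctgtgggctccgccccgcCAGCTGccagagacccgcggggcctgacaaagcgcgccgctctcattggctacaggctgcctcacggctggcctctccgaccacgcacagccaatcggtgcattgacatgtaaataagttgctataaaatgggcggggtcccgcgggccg

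Helt held 1 E-box, CACCTG, beginning 143 bases before the start, and 1 RBPJ core beginning 58 bases before it. Hes5 held 1 E-box of the same letters, beginning 194 bases before the start, and 2 RBPJ cores, beginning 226 and 82 bases before it. The downstream start of Hes6 held 1 E-box, CAGCTG, and the upstream one 3 E-boxes, neither with an RBPJ core in this window. Hes7 held 2 E-boxes and 1 RBPJ core, and Hey2 1 of each. Across 32851 promoter windows of 250 bases, 66.2% held an E-box CANNTG and 44.8% the narrower form CAGNTG, which every window of the 5 genes held and which lies within the general form. The RBPJ core was in 21.6% of all windows, and 2.77% had at least 2. These matches describe letters only, and no binding was measured in these libraries.

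**Figure D2:**
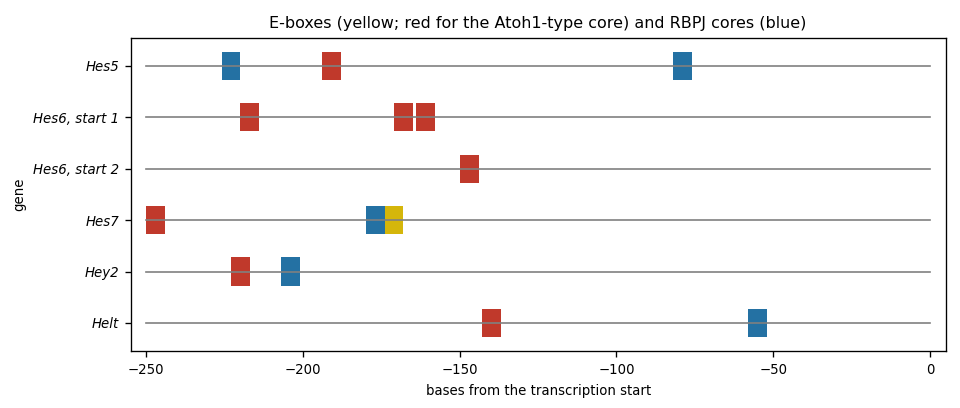
Positions of E-boxes (yellow for CANNTG, red where they also match CAGNTG) and RBPJ cores TGGGAA (blue) in the 250 bases before 6 starts of 5 genes; the horizontal axis is the distance in bases from the transcription start. Hes5 has 2 RBPJ cores and the Hes6 windows none.

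Heyl, a Notch target, lies on chromosome 4 from 122910799 to 122927118 (plus strand, NCBIM37) and was called in more lines than any other member, 5 of 7. Its untreated libraries ran from 7.02 to 22.0 normalized counts. With Dox it rose to 495 and 477 in iAtoh1, to 1062 and 1881 in iG+A, to 639.9 and 876 in iGPA, and to 144 and 79.8 in iP+A. Each of these Dox libraries exceeded every untreated one. The rises were 25.8-fold in iAtoh1 (log2 4.69, SE 0.49, adjusted p = 2.7e-06), 93.4-fold in iG+A, 52.0-fold in iGPA and 5.32-fold in iP+A. In iG+P cells Heyl went from 19.4 and 7.02 to 60.8 and 26.0, a log2 change of 1.68 (SE 0.49, adjusted p = 0.013). That call was lost without the first iG+P Dox replicate (1.08) or without the second untreated one (1.00). Heyl was at 48.3 and 38.1 in iGfi1 Dox libraries and at 6.23 and 13.7 in those of iPou4f3, and neither line passed the threshold.

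The Heyl response differed past the threshold between iGPA and iP+A, while the differences of iG+A and iP+A from iAtoh1 did not pass in the main fit. The Dox effect was larger in iG+A than in iAtoh1 by 1.86 (SE 0.70, 95% interval 0.39 to 3.32, adjusted p = 0.081) and smaller in iP+A than in iAtoh1 by 2.28 (SE 0.70, 95% interval −3.74 to −0.81, adjusted p = 0.067). With the replicate number of each line as a block, both differences passed the threshold, with adjusted p-values of 0.0046 and 0.0030. Between iGPA and iP+A the Dox effect of Heyl differed by 3.29 (SE 0.70, adjusted p = 0.0030).

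Hes5, the Notch effector best known from neural progenitors and the supporting cells of the inner ear, lies on chromosome 4 from 154335032 to 154336480 (plus strand, NCBIM37). It was low in all untreated libraries, with 5.85 normalized counts at most. With Dox it reached 280.1 and 343 in iG+A, 179 and 268 in iGPA, 61.0 and 33.2 in iAtoh1, 28.7 and 5.39 in iG+P and 14.5 and 9.58 in iP+A. The iG+A and iGPA libraries were above all others. The log2 change was 6.50 (SE 0.89, adjusted p = 1.4e-05) in iG+A, 6.20 (SE 0.89, adjusted p = 1.7e-05) in iGPA, 2.96 (SE 0.89, adjusted p = 0.022) in iAtoh1 and 2.99 (SE 0.89, adjusted p = 0.014) in iG+P. The log2 change in iP+A, 2.33 (95% interval 0.47 to 4.19), had an adjusted p of 0.063. It was called with quantile normalization (2.42, adjusted p = 0.037), against all untreated libraries together (1.85, adjusted p = 0.036), without the second iP+A untreated library (3.68, adjusted p = 0.013) and without either iG+P Dox library (adjusted p = 0.0497 and 0.0494).

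The smaller Hes5 calls did not hold when some single libraries were left out. The iAtoh1 call was lost without either untreated replicate (3.18 and 2.75) or without the first Dox replicate (2.54), and the iG+P call without the first Dox replicate (1.88) or the first untreated replicate (2.19). The difference between iG+A and iAtoh1 was 3.53 (95% interval 0.90 to 6.16, adjusted p = 0.065), and it was called when only these lines were fitted (adjusted p = 0.039). That between iGPA and iP+A was 3.88 (SE 1.25, adjusted p = 0.039), and it missed the threshold under the replicate block (adjusted p = 0.057).

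Hes1, the most general Notch effector, behaved unlike Hes5. It lies on chromosome 16 from 30064470 to 30067882 (plus strand, NCBIM37) and stood between 664 and 1899 normalized counts, with a median of 1276, in the untreated libraries. With Dox it ran from 593 to 3391, with a median of 1260.1, so that the ranges overlapped across the lines. The largest values were 3391 and 2054 in iAtoh1 Dox libraries, against 1899 and 1435 without Dox. No line passed the threshold, and the 95% intervals of the log2 change were −0.07 to 1.42 in iAtoh1, −0.94 to 0.55 in iP+A, −0.50 to 0.99 in iGPA and −1.54 to −0.05 in iG+P, while the change in iG+A was 0.75 (SE 0.36, adjusted p = 0.10). Averaged over lines, the Dox effect on Hes1 was higher with an Atoh1 cassette than without by 0.84 (SE 0.27, adjusted p = 0.024), below the fold that counts as a call.

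Hey1 and Hey2, partners of Hes1 in the Notch response and regulators of heart and vessel development, were called in opposite directions and in different lines. Hey1, on chromosome 3 from 8663362 to 8667039 (minus strand, NCBIM37), stood between 313 and 801 normalized counts without Dox. It reached 3152 and 3087 in iG+A, 2271 and 3107 in iGPA and 1886 and 1613 in iP+A with Dox, all above the untreated range. These rises were 8.54-fold (log2 3.09, SE 0.30, adjusted p = 3.1e-07), 6.70-fold and 3.95-fold. In iAtoh1 cells Hey1 went from 801 and 515 to 1607 and 958, a log2 change of 0.95 (SE 0.30, adjusted p = 0.030) that was under the fold of a call. The difference between iG+A and iAtoh1, 2.14 (SE 0.43, adjusted p = 0.0021), passed the threshold, and that between iP+A and iAtoh1, 1.03 (95% interval 0.14 to 1.93, adjusted p = 0.20), did not.

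Hey2 lies on chromosome 10 from 30552165 to 30562607 (minus strand, NCBIM37). In iG+P cells it fell from 1826 and 1399 to 464 and 388 normalized counts, a log2 change of −1.91 (SE 0.19, adjusted p = 5.1e-07). It went from 1039 and 1019 to 401 and 477 in iGfi1 cells (−1.23, adjusted p = 0.00018) while iGPA libraries stood at 857 and 748 without and 487 and 411 with Dox (−0.84, adjusted p = 0.0017), both without overlap and both under the fold of a call. The 3 lines share the Gfi1 cassette, but iG+A cells, which carry it too, were at 574 and 668 without and 587 and 621 with Dox. Among the lines without that cassette, Hey2 stood between 891 and 1449 in iAtoh1 and iPou4f3 Dox libraries. In iP+A it was at 1243 and 994 without and 768 and 885 with Dox, which did not overlap (−0.43, 95% interval −0.84 to −0.02, adjusted p = 0.11).

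The untreated level of Hey2 was not the same in every line. Untreated iG+P libraries held the highest Hey2 of the 7 lines and untreated iG+A libraries the lowest. Hey2 was the only member whose untreated level differed between lines (moderated F test, adjusted p = 0.0057, a spread of 1.37 on the log2 scale), a test that 12.1% of all genes passed. Against all 14 untreated libraries together the iG+P change was −1.16. Cardiac markers moved beside it: in iG+P cells 8 of 12 listed cardiac genes fell and none rose, and their summed level went from 69295 and 59456 to 9060 and 9344 normalized counts. In iGfi1 cells 5 of 12 fell, with a sum that went from 58429 and 61553 to 12485 and 19015. In iGPA cells Hand1, Hand2 and Tbx20, regulators of the embryonic heart, fell, and the sum went from 53321 and 43456 to 12895 and 12821. In iG+A cells Hand1 and Tbx20 fell and the sum went from 32723 and 42011 to 18400 and 10020, with Hey2 at the values given. The part of cardiac cells in the Hey2 changes was not tested.

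Hes7, the oscillator of the segmentation clock, lies on chromosome 11 from 68933906 to 68937557 (plus strand, NCBIM37) and stood between 5.65 and 24.5 normalized counts without Dox. It rose to 54.8 and 40.7 in iAtoh1, 66.4 and 65.5 in iGPA, 37.2 and 113 in iG+A and 85.6 and 38.9 in iG+P. These 8 Dox libraries lay above all untreated ones. The log2 changes were 2.05 (SE 0.45, adjusted p = 0.0033), 2.65 (adjusted p = 0.00011), 1.89 (adjusted p = 0.0028) and 2.02 (adjusted p = 0.0019). The iG+A call was lost without the second Dox replicate (1.10) and the iG+P call without the first (1.46). In iP+A cells Hes7 was at 19.0 and 19.2 with Dox and at 24.5 and 13.8 without, a log2 change of 0.05 (95% interval −0.90 to 1.01). Its Dox effect in iGPA exceeded that in iP+A by 2.60 (SE 0.64, adjusted p = 0.0085).

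Genes of the segmentation clock and presomitic mesoderm were called in lines with and without a called Hes7. Of 14 listed genes, Hes7 itself among them, 8 rose in iGPA, 7 in iG+P, 5 in iG+A, 4 in iAtoh1 and in iGfi1, 2 in iP+A and none in iPou4f3, and Cyp26a1 fell in iAtoh1. Several of these are Notch genes in their own right, namely Dll1, Dll3, Lfng and Nrarp. Msgn1, a regulator of the presomitic mesoderm named here after its values were seen, was at 76.6 and 29.9 normalized counts in iG+P Dox libraries, where Hes7 rose, and at 4.54 and 1.91 in those of iAtoh1, where it rose too.

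Hes3, a bHLH repressor of neural progenitors, lies on chromosome 4 from 151660081 to 151665771 (minus strand, NCBIM37) and stayed between 0 and 11.4 normalized counts in all 28 libraries. No line passed the threshold, and at this level changes of a few reads decide the fold. Its lowest log2 change, −2.10 in iAtoh1, had an adjusted p of 0.052, and 0.049 with quantile normalization. In iG+P the log2 change was 1.55 (adjusted p = 0.13), and Hes3 was called higher there without the first untreated library (2.57, adjusted p = 0.036) or the first Dox library (2.55, adjusted p = 0.035). The relatives Bhlhe40 and Bhlhe41, bHLH repressors outside the Notch response, were not called in any line. Bhlhe40 ranged from 317 to 1841 normalized counts and Bhlhe41 from 58.4 to 372.

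**Figure D3:**
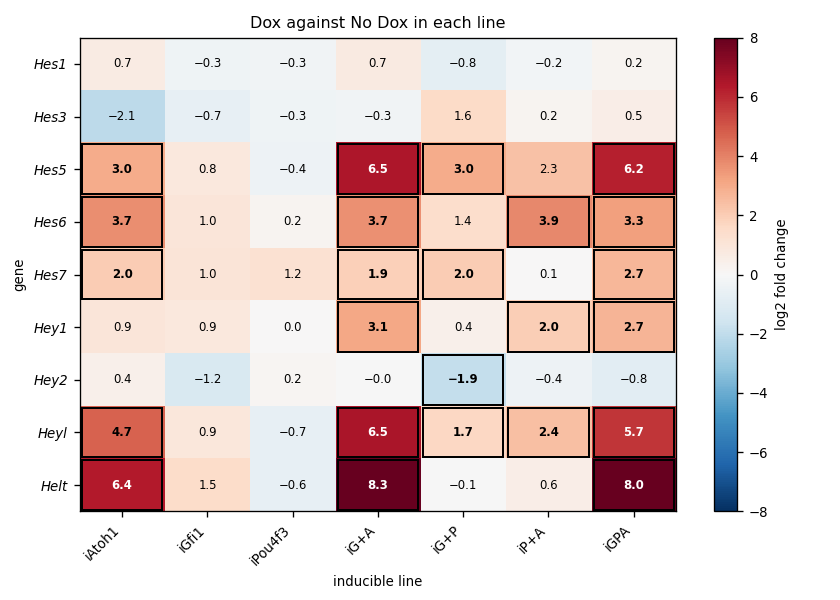
Log2 fold change of Dox against No Dox for the 9 genes (rows) in the 7 lines (columns), from limma on log2(normalized count + 1); boxed bold values passed the threshold (adjusted p under 0.05, log2 fold change of 1.5 or more in size). The boxes gather in iAtoh1, iG+A and iGPA, Hes1 and Hes3 have none, and the only boxed fall is Hey2 in iG+P; values for Helt in iP+A and iGPA, where untreated libraries were at 0, depend on the added 1.

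The design allows each factor to be added to a line that lacks it, in 9 comparisons of Dox effects, which ask what that factor contributes beside the others and which share libraries with each other. Of 81 pairs of a member and a comparison, 18 were called higher and 2 lower with the added factor. Adding Atoh1 raised the most members: Hes5, Hes6, Hey1, Heyl and Helt over iGfi1 (5 of 9, where 8.54% of all genes were called in either direction), Hes6, Hey1, Heyl and Helt over iG+P (4 of 9, against 5.9%), and Hes6, Hey1 and Heyl over iPou4f3 (3 of 9, against 1.61%). The difference of Helt between iG+A and iGfi1 was 6.86 (SE 1.24, adjusted p = 0.00072), and that of Heyl 5.61 (SE 0.70, adjusted p = 3.3e-05).

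Adding Gfi1 raised Hes5, Hes7, Heyl and Helt over iP+A (4 of 9, against 7.6% of all genes) and Hey1 over iAtoh1 (1 of 9, against 6.87%). Over iPou4f3 it raised Heyl and lowered Hey2 (2 of 9, against 7.63%). The Hes5 difference there, 3.38 (95% interval 0.75 to 6.02, adjusted p = 0.070), was not called. Adding Pou4f3 changed 1 member past the threshold, Helt, which was lower than in iAtoh1 (1 of 9, against 2.78%). It changed no member over iGfi1, where 1.85% of all genes were called, and none over iG+A, where 2.2% were. Under the replicate block Heyl was also called lower with Pou4f3 over iAtoh1 and higher with Gfi1 over iAtoh1, and Hes5 was not called with Gfi1 over iP+A, with the adjusted p-values given for these genes. For Pou4f3 over iG+A the 95% interval was −0.99 to 0.19 for Hes6, −1.25 to 0.55 for Hey1, −2.31 to 0.62 for Heyl, −2.92 to 2.34 for Hes5 and −2.97 to 2.24 for Helt. Of these 5, only for Hes6 and Hey1 was a difference of 1.5 in either direction outside the interval. For Hey2 the difference was −0.80 (95% interval −1.38 to −0.23, adjusted p = 0.11), an interval without 0.

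Averaged over lines, Dox effects were higher with an Atoh1 cassette than without for Helt by 5.55 (SE 0.67), Heyl by 4.19 (SE 0.38), Hes5 by 3.36 (SE 0.68), Hes6 by 2.77 (SE 0.15) and Hey1 by 1.75 (SE 0.23). All 5 passed the threshold with adjusted p-values between 6.3e-10 and 0.00091, against 4.59% of all genes. With a Gfi1 cassette they were higher for Hes5 by 2.50 (SE 0.68), Helt by 2.33 (SE 0.67) and Heyl by 1.57 (SE 0.38), against 6.84% of all genes, and the Heyl value was under the fold of a call, between 1.40 and 1.47, without any of 7 single libraries (iPou4f3 No Dox 2 and Dox 1, iG+A No Dox 1 and Dox 2, iG+P No Dox 2 and Dox 1, and iP+A Dox 2) and with quantile normalization (1.42) or a pseudocount of 5 (1.41). Adding Gfi1 line by line moved Heyl by 1.86 over iAtoh1, which was not called, 2.36 over iPou4f3 and 3.29 over iP+A. Hey2 was lower with a Gfi1 cassette (difference −1.05, SE 0.15, adjusted p = 2.3e-05), under the fold of a call. With a Pou4f3 cassette the averaged Dox effects were lower for Helt (−3.43, SE 0.67, adjusted p = 0.0023), and for Heyl (−1.78, SE 0.38, adjusted p = 0.0046), against 2.34% of all genes. No line lacked all 3 factors, so Atoh1 cassettes were in a larger share of the lines without Gfi1 or Pou4f3 than with it. For genes raised by Atoh1 this lowers the Gfi1 and Pou4f3 averages. Adding Pou4f3 line by line moved Heyl by −2.28 over iAtoh1, 0.74 over iGfi1 and −0.85 over iG+A, none called. For Helt these differences were −5.81, which was called, −1.52 and −0.37.

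**Figure D4:**
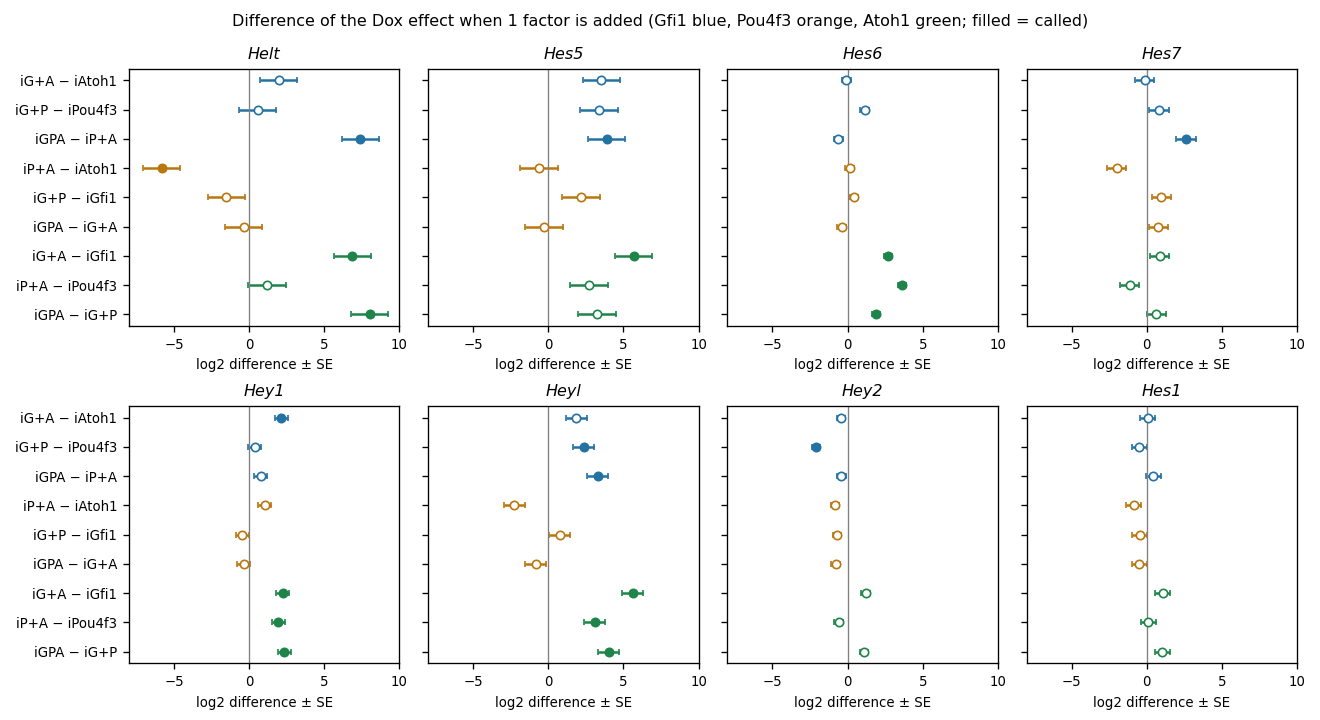
Differences of the log2 Dox effect between a line and the same line without 1 factor, with their standard errors, for 8 genes; colours give the added factor (Gfi1 blue, Pou4f3 orange, Atoh1 green) and filled points passed the threshold. Green points for Hes6 lie between 1.88 and 3.62, while Helt shows the lowest point, −5.81, when Pou4f3 is added to Atoh1.

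Notch ligands rose in 6 of the 7 lines, iGfi1 included, where no member of the family was called. Of 12 listed ligands and receptors, 6 rose and 1 fell in iAtoh1, 8 rose in iG+A, 6 rose and 1 fell in iGPA, 5 rose in iP+A, 2 rose and 1 fell in iG+P and in iGfi1, and none was called in iPou4f3. Dll3, a Delta-like ligand that acts within its own cell, went from 315 and 93.8 to 5096 and 4778 normalized counts in iAtoh1 and from 73.4 and 39.3 to 7423 and 6117 in iGPA. Dll1, the ligand that activates Notch in neighbouring cells, went from 187 and 87.3 to 2004 and 969.6 in iAtoh1. Both also rose in iGfi1 and iG+P cells, where Hes6 changed by less than the fold of a call and Helt was at 13.0 normalized counts or less. Dlk1, a Notch-related ligand of mesodermal cells, fell in iAtoh1, iGfi1, iG+P and iGPA.

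Lfng and Mfng, the fringe enzymes that put sugars on Notch and set which ligand it answers, were the leading genes of the 21 listed for ligand and receptor processing. Lfng rose to 2283 and 2450 normalized counts in iAtoh1, 2653 and 4259 in iG+A, and 2107 and 2443 in iGPA Dox libraries, from 67.7 to 182 in the untreated ones. In iP+A cells Lfng was at 334 and 241 with Dox and 182 and 149 without, and its Dox effect was lower than in iAtoh1 (difference −3.44, SE 0.54, adjusted p = 0.00058). Mfng rose in iP+A cells, by 4.05 on the log2 scale (SE 0.27, adjusted p = 3.8e-09).

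Among 12 genes of the Notch transcription complex and its other targets, the feedback inhibitor Nrarp rose in iG+A (2.38, SE 0.27) and iGPA (2.02, SE 0.27) and had a log2 change of 0.19 in iAtoh1, where Heyl and Helt rose. Dtx1, a Notch-binding ubiquitin ligase, rose in iG+A, iG+P, iP+A and iGPA. Of 6 Groucho corepressors measured, Tle2 and Tle5 rose in iG+A, Tle1 and Tle5 in iGPA and Tle1 in iP+A. No listed E protein (Tcf3, Tcf4 and Tcf12), the bHLH partners of Atoh1, passed the threshold in any line. Of the 4 Id genes, whose products take E proteins out of action, Id1 and Id2 rose in iAtoh1, Id1 in iG+A and iGPA, Id2 in iP+A and Id4 in iG+P.

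**Figure D5:**
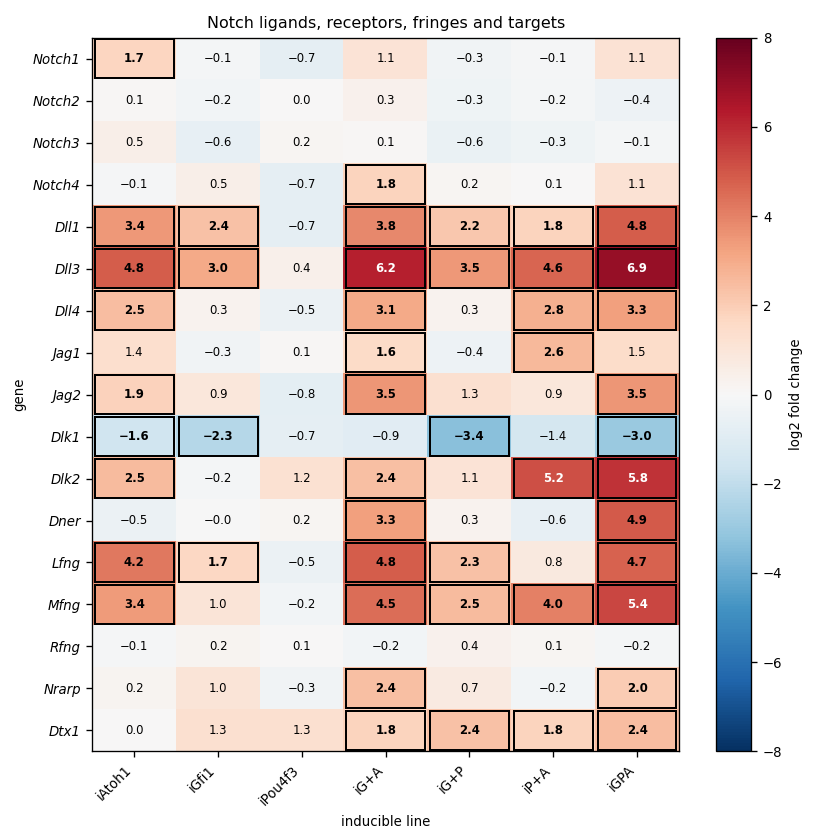
Log2 fold change of Dox against No Dox for Notch ligands, receptors, fringe enzymes and the targets Nrarp and Dtx1 (rows) in the 7 lines (columns); boxed bold values passed the threshold. Dll3 passed in every line other than iPou4f3, and Lfng in every line other than iPou4f3 and iP+A.

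Genes that accompany Helt in GABAergic neurons were checked from a list of 11. None rose in iAtoh1 cells, where Helt rose, 5 rose in iG+A and 3 each in iGPA, iP+A, iG+P and iPou4f3 and 1 in iGfi1, so that lines at or near 0 for Helt had as many calls as iGPA. Gad2, which makes GABA and was named after its values were seen, was at 331 and 656 normalized counts in iAtoh1 Dox libraries against 177 and 374 without Dox. In iPou4f3 cells it rose from 120.2 and 71.1 to 684 and 875, with Helt at 0 in both Dox libraries. Of 10 proneural and neuronal bHLH factors tested, 5 rose in iAtoh1, 5 in iG+A, 7 in iP+A and 8 in iGPA, with Nhlh1 at log2 changes of 5.14, 5.41, 7.19 and 9.29, and 5 rose in iG+P, 1 in iPou4f3 and none in iGfi1.

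Over the 28 libraries, the genes with the most similar levels were found for each member by Pearson correlation of log2(value + 1), as a description of libraries that share lines and Dox treatment. Helt was most like Slc35d3 (r = 0.94), followed by Pik3c2b, Wnt10a, Gfra2 and Lfng. Heyl was most like Art5 (0.96), followed by Ttyh2, Rasd1, Lfng and Art1. The fringe gene Lfng was among the 5 nearest genes of both. Hes5 was most like Pde2a (0.94), with Pik3c2b and Art5 also among its 5 nearest, and Hes6 was most like Zbtb18 (0.97). Hey1 was closest to Cadm1 (0.95), Hey2 to 1110059E24Rik (0.94), Hes7 to Sall3 (0.91), Hes1 to Cited1 (0.88) and Hes3 to Nppa (0.67).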

How the data were processed

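The authors sequenced mRNA libraries made from 1 µg of total RNA, trimmed adapters with cutadapt, quantified the mm9 knownGene transcripts of UCSC by pseudo-alignment with Kallisto, brought them to gene level with tximport and normalized with DESeq2. Tool versions were not given in the sources used here. The deposited values are log2(normalized count + 1) by Entrez ID, so that levels in the text are 2 to the power of the value minus 1. Whole reads could not be recovered (of the values up to 20 normalized counts, 72.4% to 79.6% were whole multiples of the library's step to within 0.05), and count tests were not run. RefSeq names were found for 19314 of 19421 genes, and positions were taken from GENCODE M1 on NCBIM37.

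The filter asked for 10 or more normalized counts in 2 or more libraries and left 16837 genes. The 14 groups entered a joint fit (R 4.3.3, limma 3.58.1) that used a variance trend and 14 residual degrees of freedom, and p-values were adjusted by the Benjamini-Hochberg method within each contrast over all genes. The threshold was an adjusted p under 0.05 with a log2 difference of at least 1.5. With 2 clones per group, a small change in a low gene is not resolved. The fit was tested on simulated data. The series record gives the replicates as different clones of a line, and the deviations of equally numbered libraries correlated in every line (from 0.10 in iG+P to 0.25 in iP+A), so a fit with the replicate as a block within each line was run as an alternative.

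The members and lists were chosen with earlier results of these data known, and no list's count is independent support. Genes named are the 9 members, 3 close relatives, the 3 induced factors, at most 3 genes per list and direction with the largest called changes in iAtoh1 or iGPA, and the 5 genes most like each member. Others are named where a count is small and were chosen after their values were seen. Alternatives were the pseudocount, the filter, the scaling, the block, the variance trend, the control libraries, the minimum fold, fits of only the lines compared, and leaving out each library.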

Additional observations from a re-analysis of the deposited data

Results flagged for a closer look

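The Dox effect of a member differed past the threshold between a line and the same line without 1 factor in 20 cases, by the test of the difference itself. Values are differences on the log2(value + 1) scale.

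With Atoh1 added to Gfi1 the difference was 2.69 for Hes6, 2.24 for Hey1, 5.61 for Heyl, 5.67 for Hes5 and 6.86 for Helt. When Atoh1 joined Pou4f3 it was 3.62 for Hes6, 1.94 for Hey1 and 3.09 for Heyl, and the last pair of these was lost without the first iPou4f3 Dox library (1.59 and 2.58) or the second iPou4f3 untreated library (1.56 and 2.67), and without the first iP+A Dox library (1.83 and 2.67). Hey1 was also not called without the first iP+A untreated library (1.82), nor Heyl without the second (2.95). In iGPA against iG+P it was 1.88 for Hes6, 2.33 for Hey1, 4.02 for Heyl and 8.02 for Helt.

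With Gfi1 added to Pou4f3 and Atoh1, the difference was 3.29 for Heyl, 2.60 for Hes7, 3.88 for Hes5 and 7.41 for Helt. The Helt values that involve iGPA or iP+A start from untreated libraries listed at 0, so their size depends on the added 1 and is no bound. The Hes5 value missed the threshold in 6 of the 8 fits that left out a library of iGPA or iP+A (all but the first untreated library of each), where it ran from 2.53 to 4.17, and with a pseudocount of 0.5 (3.67). Gfi1 added to Atoh1 gave 2.14 for Hey1, and Gfi1 added to Pou4f3 gave 2.36 for Heyl and −2.08 for Hey2. The Heyl value was not called without the first iG+P Dox library (1.76), the second iG+P untreated library (1.68), the first iPou4f3 Dox library (1.84) or the second iPou4f3 untreated library (1.93), nor with quantile normalization (2.11).

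With Pou4f3 added to Atoh1, the difference was −5.81 for Helt, which was listed at 0 or 1.18 normalized counts in iP+A Dox libraries.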

How the results depend on the processing

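No result reversed under any alternative. Of 63 pairs of a member and a line, 23 were called higher and 1 lower. The number called lower was 2 with quantile normalization and with a fold of at least 1, 3 with no minimum fold, and 0 with all untreated libraries as 1 control. When each of the 28 libraries was left out in turn, the number called higher ran from 22 to 25 and the number called lower from 1 to 2, the second being Hes3 in iAtoh1 when a library was missing. Of 20 pairs called when 1 factor was added, 17 to 21 were called with a library left out, and of 10 called with and without a factor, 9 to 11. With the replicate block these counts were 23, 1, 21 and 10, and beside the changes given for Heyl and Hes5 the block changed no other call. Fitting only the lines compared left 20 pairs higher, 1 lower and 17 with an added factor. Hes7 in iG+A and Hes5 and Heyl in iG+P were lost there, as were 4 differences (Heyl between iG+P and iPou4f3, Hey1 and Heyl between iP+A and iPou4f3, and Hes5 between iGPA and iP+A), while that of Hes5 between iG+A and iAtoh1 (3.53) was gained. With all untreated libraries as 1 control, Helt in iGfi1 (2.19) and Hes5 in iP+A (1.85) were gained and Heyl in iG+P (1.27) and Hey2 in iG+P (−1.16) lost. The cause was not tested. With 5 in place of 1 added before the logarithm, Heyl fell under the fold in iG+P (1.40) and with against without Gfi1 (1.41), while the differences of Hes5 (3.03) and Heyl (1.78) between iG+A and iAtoh1, of Heyl between iP+A and iAtoh1 (−2.21) and of Hes5 between iGPA and iG+P (3.32) were called. Quantile normalization moved the median of all genes by at most 0.07 on the log2 scale. Calls of Hes3, Hes5, Hes7 and Helt rest on few reads in untreated libraries, which limits how finely their folds are known.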

Other observations

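The lines differed in the wider gene groups that stood beside the family. All 7 listed neuronal genes, among them Elavl4, Stmn2 and Map2, rose in iP+A, the Atoh1 line with Helt at 0 and 1.18 normalized counts and Hes7 at its untreated level, while 5 rose in iGPA, 4 in iAtoh1, 3 each in iG+A and iPou4f3, 2 in iG+P and none in iGfi1. Of 6 listed hair cell genes, 4 rose in iGPA (Myo6, Otof, Lhx3 and Espn), 3 in iG+A, 2 each in iP+A and iG+P, 1 in iPou4f3 and none in iAtoh1 and iGfi1. Of 9 fibroblast and mesenchyme genes, 7 fell in iGPA, 5 in iG+A, 4 in iG+P, 3 in iAtoh1, 2 in iGfi1, 1 in iP+A and none in iPou4f3, in cells that were sorted only after Dox, while Thy1 of the same list rose in iGPA and iP+A. Of 10 neural progenitor genes, 3 rose in iAtoh1 (Fabp7, Notch1 and Pax3), 3 rose and Sox2 fell in iG+A, 2 rose and Vim fell in iGPA, and 1 rose and Sox2 fell in iP+A, while Pax3 rose and Vim and Zic1 fell in iGfi1 and iG+P and none was called in iPou4f3. Of 10 ESC markers, 6 fell in iP+A, 4 each in iG+A and iGPA, 2 in iG+P and none in iAtoh1, iGfi1 and iPou4f3. Among 12 endothelial genes, where Hey1, Hey2 and Heyl are also known to act, Cldn5 and Sox18 rose and Pecam1 fell in iGPA, Pecam1, Tek and Sox17 fell in iG+P, Pecam1 and Tek in iAtoh1 and Pecam1 in iP+A, Sox18 rose in iG+A, and none was called in iGfi1 and iPou4f3. These genes were named from lists chosen with earlier results of the data known, and differences between the lines in their counts were not tested. A single call in such a short list cannot be told apart from the share of all genes called in that line. That share was, for example, 7.35% higher in iG+A and 5.31% lower in iGPA.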
